A study of Saccharomyces cerevisiae with 22 samples.

Results

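Budding yeast (Saccharomyces cerevisiae) exposed to hydrogen peroxide was compared directly with yeast exposed to heat, at the same times and without any earlier stress. The comparison rests on 4 of the 22 arrays of the series, chosen by their labels: peroxide at 30 and 45 min and heat at 30 and 45 min. All cells were of the strain labelled 4741 and were growing exponentially (mid-log) at 30 °C in YPD, a rich medium. The peroxide group received 0.66 mM hydrogen peroxide, the heat group was held at 40 °C, and 2 untreated arrays (a and b) served as the reference level. Both untreated arrays were taken at 0 min, so differences from the untreated level are not matched by time. Each stress and time has 1 array, and each stress was given at 1 strength, so the kind of stress and its strength cannot be told apart. Arrays of cells in 0.8 M KCl at 30 and 45 min entered the fit only to estimate the spread. The untreated arrays also shared in that estimate, and so in the p-values of peroxide against heat.

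Yeast meets many stresses with a shared programme, the environmental stress response, in which stress-protective genes are raised through the factors Msn2 and Msn4 while genes for making ribosomes are lowered. Heat adds the targets of the heat shock factor Hsf1, chiefly chaperones that refold or hold damaged proteins. Peroxide adds the targets of Yap1 and Skn7, which encode enzymes that reduce peroxides, thiols and reactive carbonyls.

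Expression was measured with Affymetrix yeast arrays and is given as log2 values, so a difference of 1 is a 2-fold change. Per-array values are listed as untreated a and b, then 30 and 45 min for each stress. A difference is the peroxide mean minus the heat mean with its standard error from limma (n = 2 arrays per stress). A gene is called higher or lower in peroxide when its Benjamini-Hochberg adjusted p over 5449 genes is under 0.05. The time points stand in for replicates, so the error holds any change between 30 and 45 min that the stresses do not share. In RNA from whole cultures, fewer cells of a kind and less RNA per cell cannot be told apart.

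The arrays were alike in level and range. RMA, the method that made the deposited values, usually gives arrays 1 common distribution, so this likeness is no check of the arrays. Array medians lay between 10.18 and 10.21, and a background of 4.62 was exceeded by 97.5 to 98.5% of genes. The untreated arrays correlated at r = 0.998 across genes, which are not independent replicates. The 3′ to 5′ signal difference of the SPT15 control probe sets, a measure of RNA integrity and labelling, was 1.71 and 1.62 after heat, 1.27 and 1.47 after peroxide, and 1.23 and 1.28 in untreated cells. It moves with the groups compared, and its part in the results was not tested. That of ACT1 ran from 0.36 to 0.68 with the groups overlapping. For SRB4 it was 2.44 and 2.69 after heat, 2.47 and 2.64 after peroxide, and 2.38 and 2.26 in untreated cells. Heat and peroxide overlapped there, and both lay above the untreated arrays. Heat arrays held more genes at 2-fold or more from the mean of the untreated arrays, with 858 up and 685 down at 30 min, against 446 up and 327 down in peroxide. At 45 min these counts were 611 and 481 for heat and 352 and 137 for peroxide.

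Of 5449 genes, 1156 (21.2%) differed between peroxide and heat. Of these, 463 (8.50% of all genes) were higher in peroxide and 693 (12.7%) were lower, and 562 differed by at least 2-fold. All 1156 had the same sign at 30 and 45 min, and in 1155 the peroxide and heat arrays did not overlap. Over all 5449 genes, 79.4% had the same sign at both times and 69.8% did not overlap. With most choices of arrays listed here, the number called moved by over 1.5 times. It was 2381 without the KCl arrays, or without either one of them, and 417 without either untreated array. Without heat at 30 min it was 171 and without heat at 45 min 1190, and without peroxide at 30 or 45 min it was 119 and 343.

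The 15 largest differences toward peroxide included genes of redox enzymes and of transporters. FRM2 (YCL026C-A), which encodes a nitroreductase-like protein, measured 7.02 and 7.08 in untreated cells, 6.91 and 6.997 after heat, and 13.95 and 13.38 after peroxide. The heat arrays lay at the untreated level, and both peroxide arrays were far above every other array. The difference was 6.71 ± 0.20, a 105-fold ratio (adjusted p = 0.000216). OYE3 (YPL171C), an NADPH-dependent old yellow enzyme, measured 5.95 and 6.09 untreated, 6.33 and 6.33 after heat, and 11.97 and 11.25 after peroxide. Its difference of 5.28 ± 0.27 (adjusted p = 0.00118) also came almost wholly from the peroxide arrays. GPX2 (YBR244W), a glutathione peroxidase gene, measured 11.74 and 11.57 untreated, 8.74 and 8.62 after heat, and 13.73 and 13.35 after peroxide. Here the stresses lay on opposite sides of the untreated arrays, with a difference of 4.86 ± 0.18 (adjusted p = 0.000373).

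SRX1 (YKL086W), the sulfiredoxin that reactivates over-oxidised peroxiredoxins, measured 6.78 and 6.66 untreated, 8.12 and 7.71 after heat, and 13.34 and 11.36 after peroxide. Both stresses lay above the untreated arrays, peroxide by far the more, and the difference was 4.44 ± 0.51 (adjusted p = 0.00534). The glutathione S-transferase gene GTT2 differed by 3.79 ± 0.31, the multidrug exporter gene FLR1 by 3.57 ± 0.35, and YML131W, a putative oxidoreductase gene, by 3.19 ± 0.19. For these genes the heat arrays were within 0.69 of the untreated mean.

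In a second kind of gene, heat lay much further from the untreated level than peroxide did. DBP2, a DEAD-box RNA helicase gene, measured 13.07 and 13.03 untreated, 7.08 and 6.87 after heat, and 11.88 and 11.71 after peroxide (4.82 ± 0.30, adjusted p = 0.00177). The hexose transporter gene HXT2 measured 13.06 and 13.07 untreated, 9.07 and 7.94 after heat, and 12.07 and 12.08 after peroxide (3.57 ± 0.26). HO, the endonuclease of mating-type switching, measured 11.23 and 11.26 untreated, 6.83 and 7.19 after heat, and 9.52 and 10.91 after peroxide (3.21 ± 0.46). RKI1, the ribose-5-phosphate isomerase of the pentose phosphate pathway, measured 12.44 and 12.51 untreated, 7.81 and 9.43 after heat, and 11.84 and 11.92 after peroxide (3.26 ± 0.74). In each of these, both peroxide arrays lay below the untreated arrays and both heat arrays lay lower still.

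**Figure D1:**
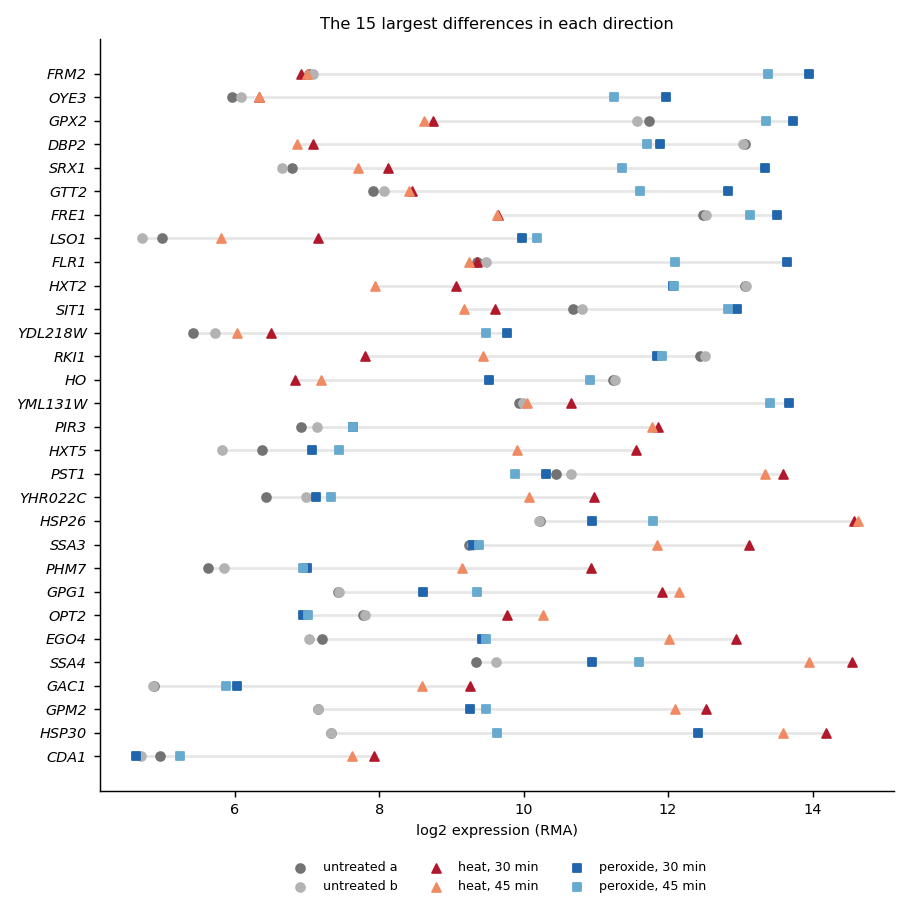
Log2 expression (x axis) on the 2 untreated, 2 heat and 2 peroxide arrays for the 15 genes with the largest differences in each direction (y axis), among genes past the threshold with the same sign at both times. In the upper 15 the blue peroxide squares lie right of the red heat triangles, from FRM2 (6.71) down to YML131W (3.19), and in the lower 15 the order is turned, from PIR3 (-4.18) to CDA1 (-2.84).

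The 15 largest differences in the other direction included genes of the cell wall, of chaperones and of transporters. PIR3 (YKL163W), a cell wall protein with internal repeats, measured 6.91 and 7.13 untreated, 11.86 and 11.77 after heat, and 7.64 and 7.63 after peroxide. The heat arrays stood apart from the other 4, with a difference of -4.18 ± 0.33 (adjusted p = 0.00329). HSP26 (YBR072W), a small heat shock protein gene, measured 10.22 and 10.21 untreated, 14.57 and 14.63 after heat, and 10.95 and 11.79 after peroxide (-3.23 ± 0.20, adjusted p = 0.00177). The heat values were close to the highest value on any of these arrays, 14.79 to 14.85. HSP30, which encodes a membrane protein that restrains the proton pump Pma1, measured 7.33 and 7.34 untreated, 14.19 and 13.59 after heat, and 12.41 and 9.63 after peroxide (-2.87 ± 0.49, adjusted p = 0.0154). Peroxide was above the untreated arrays here too, and the peroxide arrays differed from each other more than the heat arrays did.

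Other genes of this direction included the hexose transporter HXT5 (-3.47 ± 0.53), the wall protein PST1 (-3.37 ± 0.29), the G-protein subunit GPG1 (-3.05 ± 0.30), the oligopeptide transporter OPT2 (-3.04 ± 0.25) and the phosphoglycerate mutase homologue GPM2 (-2.95 ± 0.21). GAC1, which targets the phosphatase Glc7 to glycogen synthase, measured 4.88 and 4.86 untreated, 9.25 and 8.59 after heat, and 6.02 and 5.88 after peroxide (-2.97 ± 0.21). Of the 30 genes in the plot of the largest differences, 19 stayed past the threshold whichever array was left out. The other 11 lost the call without at least 1 array: LSO1, RKI1, SIT1, HO, SRX1, HXT5, PHM7, HSP30, YHR022C, SSA3 and GPG1. LSO1 and RKI1 lost it most often, each without 5 of the 8 arrays, and SRX1 only without heat at 30 min (adjusted p = 0.061).

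Among 13 genes of peroxiredoxins, thioredoxins and their reductases, 6 (46.2%) were higher in peroxide, against 8.50% of all genes, and none was lower. Those 6 were SRX1, the peroxiredoxins TSA2 and PRX1, the methionine sulfoxide reductase MXR1, the thioredoxin reductase TRR1 and the thioredoxin TRX1. Without the KCl arrays 7 were higher and 2 lower. TSA2 measured 7.83 and 7.93 untreated, 12.01 and 11.58 after heat, and 13.73 and 13.69 after peroxide (1.91 ± 0.38, adjusted p = 0.0229). Heat alone was thus well above the untreated arrays, with peroxide above heat. TRR1 measured 13.38 and 13.24 untreated, 13.43 and 13.26 after heat, and 14.48 and 14.37 after peroxide (1.08 ± 0.13, adjusted p = 0.00658), and the peroxide arrays stood apart from the other 4. MXR1 measured 11.30 and 11.15 untreated, 10.35 and 10.91 after heat, and 11.79 and 11.94 after peroxide (1.24 ± 0.22).

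The abundant peroxiredoxins TSA1 and AHP1 gave small differences, and neither they nor the thioredoxin TRX2 passed the threshold. TSA1 measured 14.16 and 14.15 untreated, 14.28 and 14.28 after heat, and 14.41 and 14.43 after peroxide (0.14 ± 0.13). AHP1 gave 0.08 ± 0.15 and TRX2 0.40 ± 0.14. These signals were near the top of the range of the arrays. The mitochondrial members also did not pass, with TRX3 at -0.56 ± 0.18, TRR2 at -0.40 ± 0.17 and MXR2 at -0.55 ± 0.16, whereas PRX1, a mitochondrial peroxiredoxin, was higher in peroxide by 1.09 ± 0.24. The count of 6 fell to 1 without either 30 min array, to 3 without heat at 45 min, to 2 without peroxide at 45 min and to 4 without either untreated array.

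Of 9 catalase, superoxide dismutase and peroxidase genes, 4 (44.4%, against 8.50% of all genes) were higher in peroxide: GPX2, CTA1, CCS1 and SOD2. GPX1 and HYR1 were lower, which is 2 of 9 (22.2%, against 12.7% of all genes). CTA1, the peroxisomal catalase, measured 6.95 and 6.83 untreated, 6.25 and 5.86 after heat, and 9.69 and 7.59 after peroxide (2.59 ± 0.47, adjusted p = 0.0176). CTT1, the cytosolic catalase, measured 7.44 and 7.56 untreated, 12.73 and 11.35 after heat, and 11.36 and 8.60 after peroxide. The CTT1 difference, -2.06 ± 0.67, had the opposite sign to that of CTA1 and did not pass (adjusted p = 0.0761). The glutathione peroxidase genes also split. GPX1 measured 7.69 and 7.77 untreated, 11.44 and 10.46 after heat, and 9.51 and 9.31 after peroxide (-1.54 ± 0.28), and HYR1, the peroxide sensor that passes oxidation to Yap1, gave -0.69 ± 0.14. CCS1, the copper chaperone of Sod1, was higher in peroxide by 1.30 ± 0.25, while SOD1 itself gave 0.18 ± 0.13. The counts of 4 and 2 became 1 and 0 without heat at 30 min, 3 and 1 without heat at 45 min, 2 and 0 without peroxide at 30 min, 3 and 0 without peroxide at 45 min, and 2 and 1 without either untreated array.

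**Figure D2:**
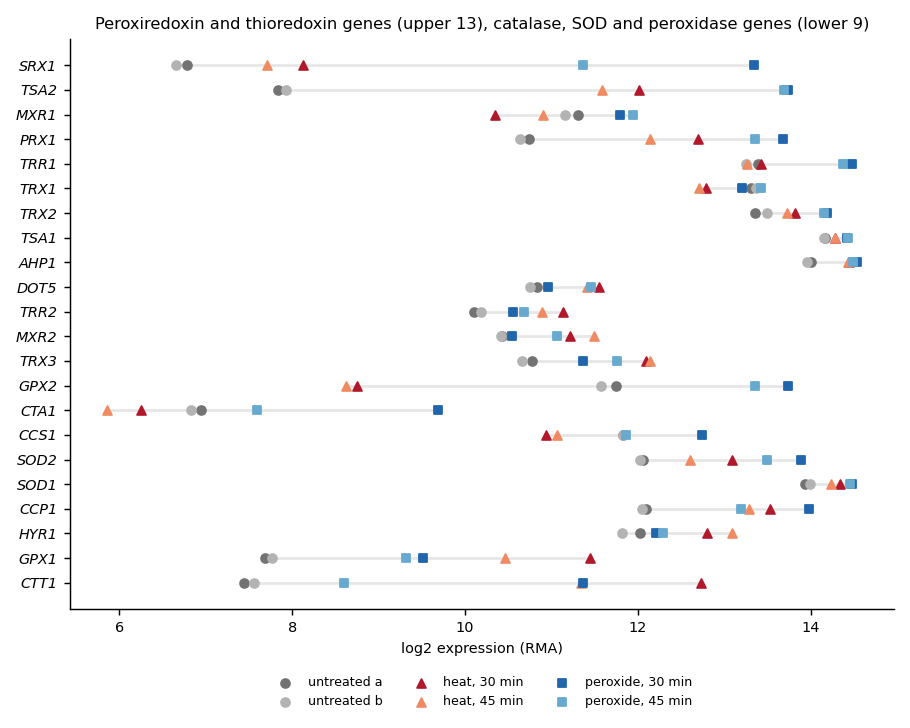
Log2 expression (x axis) of 13 peroxiredoxin and thioredoxin genes and 9 catalase, superoxide dismutase (SOD) and peroxidase genes (y axis, each block sorted by the difference) on the untreated, heat and peroxide arrays. SRX1 and GPX2 show the widest gaps (4.44 and 4.86), TSA1, AHP1 and SOD1 lie within a narrow range on all 6 arrays, and for GPX1 and CTT1 heat lies furthest right at 30 min.

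In the glutathione list, 8 of 26 genes (30.8%, against 8.50% of all genes) were higher in peroxide and 4 (15.4%, against 12.7%) were lower. The genes of glutathione synthesis were higher: GSH1, the first and limiting enzyme, measured 11.15 and 11.09 untreated, 10.50 and 10.50 after heat, and 12.67 and 11.59 after peroxide (1.63 ± 0.35, adjusted p = 0.0268), and GSH2 differed by 0.87. The reductase gene GLR1 (0.65 ± 0.15) and YCF1, the vacuolar pump for glutathione conjugates (1.27 ± 0.15), were higher as well. Of the transferases, GTT2, GTO3 (2.89 ± 0.40) and ECM4 (2.12 ± 0.26) were higher. GRX1, a glutaredoxin, was lower: it measured 11.62 and 11.41 untreated, 13.12 and 13.27 after heat, and 11.86 and 12.22 after peroxide (-1.15 ± 0.15, adjusted p = 0.00669). The median difference over the list was 0.09 (-0.02 without peroxide at 30 min), near the -0.07 of all genes. The 8 higher calls became 2 without either 30 min array and 4 without heat at 45 min or either untreated array, and the 4 lower calls became 0 without either 30 min array and 1 without peroxide at 45 min or either untreated array.

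Of 18 measured oxidoreductases, many of them known Yap1 targets, 10 (55.6%, against 8.50% of all genes) were higher in peroxide and none was lower. The median difference was 1.05. Beside FRM2, OYE3 and YML131W, the FRM2 homologue HBN1 measured 8.91 and 8.86 untreated, 10.77 and 10.70 after heat, and 13.79 and 13.33 after peroxide (2.82 ± 0.19, adjusted p = 0.00225). Both stresses lay above the untreated arrays, without overlap. The aryl-alcohol dehydrogenase gene AAD6 differed by 2.93 ± 0.32 and AAD4 by 2.49 ± 0.22, whereas AAD10 (-0.77) and AAD14 (-0.11) did not pass. AAD genes are near-identical in places, so their probe sets may share signal. OYE2, the paralogue of OYE3, gave 0.18 and did not pass. With 1 heat, peroxide or untreated array left out, 7 to 9 of the 18 were called higher, and without heat at 45 min 1 was called lower.

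Genes of iron uptake and iron sparing formed the list with the greatest share of calls in the plot of list calls. Of 34, 24 (70.6%, against 8.50% of all genes) were higher in peroxide and 2 lower, with a median difference of 1.26. The list median against untreated cells was 0.26 and -0.06 after heat and 1.20 and 1.04 after peroxide. FRE1 (YLR214W), a ferric and cupric reductase of the cell surface, measured 12.48 and 12.53 untreated, 9.64 and 9.63 after heat, and 13.51 and 13.14 after peroxide (3.69 ± 0.19, adjusted p = 0.00118). The siderophore transporter SIT1 measured 10.69 and 10.81 untreated, 9.60 and 9.17 after heat, and 12.95 and 12.83 after peroxide (3.51 ± 0.52). For both genes, heat lay below and peroxide above the untreated arrays.

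The other siderophore transporter genes ARN1 (3.08 ± 0.37), ARN2 (2.997 ± 0.25) and ENB1 (2.14) were higher in peroxide, as were the multicopper oxidase FET3 (2.45 ± 0.31) and its permease partner FTR1 (1.66 ± 0.34). FET3 measured 12.65 and 12.62 untreated, 11.45 and 11.00 after heat, and 13.65 and 13.70 after peroxide. TIS11, which speeds the decay of messages for iron-using proteins, measured 8.99 and 8.93 untreated, 9.34 and 9.06 after heat, and 12.18 and 11.26 after peroxide (2.52 ± 0.57). The mannoproteins FIT1, FIT2 and FIT3 (1.67, 1.26 and 1.05), the haem oxygenase HMX1 (2.03), the mitochondrial iron carrier MRS4 (2.08) and the iron-sulfur scaffold ISU2 (2.66) were also called. CCC1, which moves iron into the vacuole for storage, went the other way: 10.95 and 10.93 untreated, 11.20 and 11.36 after heat, and 10.43 and 10.32 after peroxide (-0.91 ± 0.18, adjusted p = 0.0229). The count of 24 was 15 without either heat or either untreated array, 13 without peroxide at 45 min and 5 without peroxide at 30 min. Of the 2 lower calls, 1 was left without peroxide at 45 min and 0 without any 1 of the other peroxide, heat or untreated arrays.

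Of 21 multidrug exporters and their kin, 5 (23.8%, against 8.50% of all genes) were higher in peroxide, among them FLR1, ATR1 (2.91 ± 0.33), QDR2 (1.29 ± 0.18) and YCF1. A further 6 (28.6%, against 12.7%) were lower, among them RSB1, a sphingoid base transporter (-2.06 ± 0.20), PDR12, the weak acid exporter (-1.61 ± 0.20), and the polyamine transporter genes TPO1, TPO2, TPO3 and TPO4. PDR12 measured 10.91 and 11.25 untreated, 12.29 and 12.15 after heat, and 10.54 and 10.69 after peroxide. PDR5, the main drug pump, gave -0.25 ± 0.13 and did not pass. Without either 30 min array the counts were 1 and 4 (heat) and 3 and 3 (peroxide). In the copper and zinc list, 3 of 18 (16.7%, against 8.50% of all genes) were higher. They were the copper transporters CTR1 (0.98 ± 0.17) and CTR2 (1.46 ± 0.22) and the reductase FRE7 (1.10 ± 0.18). A further 4 (22.2%, against 12.7%) were lower, including the zinc transporter ZRT2 (-1.03 ± 0.13). Those counts were 0 and 1 without heat at 30 min, 1 and 0 without peroxide at 30 min, 1 and 1 without peroxide at 45 min, 2 and 1 without heat at 45 min or either untreated array, and 3 and 8 without the KCl arrays.

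Of 21 genes of NADPH supply and the pentose phosphate pathway, 4 (19.0%) were higher in peroxide and 5 (23.8%) lower, against 8.50% and 12.7% of all genes. RKI1, described above, had the largest difference of the list. GND2, the minor phosphogluconate dehydrogenase, measured 7.69 and 7.81 untreated, 12.58 and 11.71 after heat, and 9.18 and 9.75 after peroxide (-2.68 ± 0.35, adjusted p = 0.00773), while the main enzyme gene GND1 gave 0.40 ± 0.15 and did not pass. SOL4 (-1.40 ± 0.36) and the transaldolase paralogue NQM1 (-2.52 ± 0.30) were lower in peroxide, whereas TAL1 gave -0.16 ± 0.19. ZWF1, the first enzyme of the pathway, measured 11.97 and 12.09 untreated, 13.11 and 12.54 after heat, and 13.74 and 13.48 after peroxide, and just missed the threshold (0.78 ± 0.23, adjusted p = 0.056). The glutamate dehydrogenase GDH1 (1.12 ± 0.24), the isocitrate dehydrogenase IDP1 (0.72 ± 0.18) and ALD6 were higher in peroxide beside RKI1. No call in either direction was left without peroxide at 30 min, and the counts were 1 and 2 without heat at 30 min, 2 and 7 without heat at 45 min, 0 and 2 without peroxide at 45 min or either untreated array, and 7 and 9 without the KCl arrays.

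**Figure D3:**
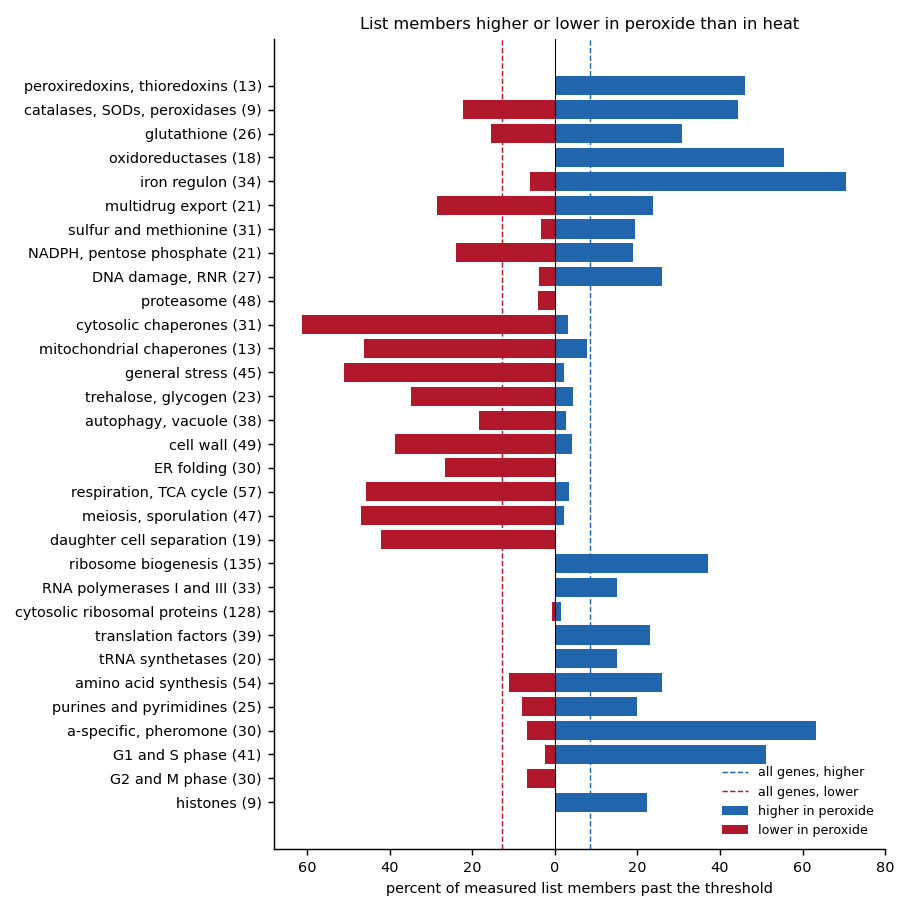
Percent of the measured genes of 31 lists (number of genes in brackets) called higher (right, blue) or lower (left, red) in peroxide than in heat, with dashed lines at the 8.50% and 12.7% of all genes. The iron list reaches 70.6% on the right, and the cytosolic chaperones reach 61.3% on the left.

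Cytosolic chaperones and their partners were lower in peroxide for 19 of 31 genes (61.3%, against 12.7% of all genes), and 1 was higher. The list median against untreated cells was 1.65 and 1.43 after heat and 0.24 and 0.44 after peroxide. SSA4, a stress-inducible Hsp70 gene, measured 9.33 and 9.61 untreated, 14.55 and 13.96 after heat, and 10.94 and 11.60 after peroxide (-2.98 ± 0.30, adjusted p = 0.00377). SSA3, another inducible Hsp70, measured 9.24 and 9.28 untreated, 13.12 and 11.85 after heat, and 9.30 and 9.38 after peroxide (-3.15 ± 0.36). In peroxide SSA3 lay just above the untreated arrays and SSA4 well above them. HSP82, the inducible Hsp90 gene, measured 11.53 and 11.37 untreated, 14.50 and 14.51 after heat, and 12.82 and 13.05 after peroxide (-1.57 ± 0.14). Its constitutive paralogue HSC82 gave -0.45 ± 0.12 and did not pass.

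The Hsp90 partners AHA1 (-1.95 ± 0.18), CPR6 (-1.53), HCH1 (-1.38) and STI1 (-0.87) and the Hsp70 partners SSE2 (-1.99 ± 0.26), SIS1 (-0.98), APJ1 (-1.39) and YDJ1 (-0.56) were lower in peroxide. So were BTN2 and CUR1, which sort misfolded proteins (-2.26 ± 0.36 and -1.51). HSP104, the disaggregase, measured 10.75 and 10.53 untreated, 13.04 and 12.98 after heat, and 12.39 and 12.20 after peroxide. Both stresses were well above the untreated arrays, and the difference of -0.71 ± 0.25 did not pass (adjusted p = 0.087). PPT1, an Hsp90 phosphatase gene, was the exception, with 10.64 and 10.88 untreated, 7.90 and 8.83 after heat, and 10.03 and 9.90 after peroxide (1.60 ± 0.43, adjusted p = 0.0474). Its call was lost under some other scalings of the arrays and with the authors' own table of fold changes. Without the KCl arrays 4 genes of the list were higher and 23 lower. The 19 lower calls became 7 without either 30 min array, 13 without either 45 min array and 12 without either untreated array.

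In mitochondria, 6 of 13 chaperone and import genes (46.2%, against 12.7% of all genes) were lower in peroxide and 1 was higher. HSP78, the mitochondrial disaggregase, measured 8.44 and 8.41 untreated, 13.21 and 12.92 after heat, and 11.38 and 11.17 after peroxide (-1.79 ± 0.14, adjusted p = 0.0032). HSP60 (-0.62 ± 0.14), HSP10 (-0.81 ± 0.14) and MDJ1 (-1.22 ± 0.22) were lower as well, and MGE1, the nucleotide exchange factor, was higher (0.60 ± 0.16). MGE1 was not called with the authors' own table of fold changes. In the endoplasmic reticulum list, 8 of 30 (26.7%, against 12.7%) were lower and none higher. The thiol oxidase ERO1 measured 11.30 and 11.14 untreated, 13.31 and 13.01 after heat, and 11.65 and 11.57 after peroxide (-1.55 ± 0.14, adjusted p = 0.0034), and the Hsp70 KAR2 gave -0.75 ± 0.13. EUG1, a protein disulfide isomerase, measured 10.92 and 10.88 untreated, 11.43 and 11.40 after heat, and 9.89 and 10.30 after peroxide (-1.32 ± 0.28), with peroxide below the untreated arrays. The lower counts of the mitochondrial and endoplasmic lists were 1 and 1 without either 30 min array and 2 and 4 without either untreated array. They were 5 and 7 without heat at 45 min, 1 and 5 without peroxide at 45 min, and 8 and 16 without the KCl arrays.

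Of 48 proteasome genes, 2 (4.17%, against 12.7% of all genes) were lower in peroxide and none higher, with medians against untreated of 0.52 and 0.29 after heat and 0.53 and 0.55 after peroxide. The called genes were the assembly chaperone NAS2 (-1.01 ± 0.14) and RPN4, the transcription factor for proteasome genes. RPN4 measured 11.30 and 11.29 untreated, 12.49 and 12.30 after heat, and 11.71 and 11.24 after peroxide (-0.92 ± 0.15, adjusted p = 0.0137). The list had a median difference of 0.14, which was -0.09 without heat at 45 min and 0.37 without heat at 30 min. Of 22 ubiquitin genes, 3 (13.6%, near the 12.7% of all genes) were lower, the conjugating enzymes UBC4 (-0.69 ± 0.14) and UBC7 (-0.67 ± 0.14) and the deubiquitinase OTU1 (-0.57 ± 0.15). The proteasome count was 1 without heat at 30 min or either untreated array, 3 without heat at 45 min and 0 without either peroxide array, and without the KCl arrays 8 were higher and 2 lower. The ubiquitin count was 0 without heat at 30 min, either peroxide array or either untreated array, and 7 without the KCl arrays.

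Genes of the general stress response were above the untreated level in both stresses and further above it in heat. The median of 45 genes was 3.93 and 3.21 after heat and 2.11 and 2.18 after peroxide. A total of 23 (51.1%, against 12.7% of all genes) were lower in peroxide and 1 was higher. Negative differences were 44 of 45, against 3047 of 5449 over all genes. HSP12, a small membrane-stabilising protein gene, measured 10.49 and 10.45 untreated, 14.69 and 14.70 after heat, and 13.02 and 13.83 after peroxide (-1.27 ± 0.22, adjusted p = 0.015). The peroxide arrays lay between the untreated and the heat arrays, and the heat values were near the top of the array range. SOD2, the mitochondrial superoxide dismutase, was the only member higher in peroxide, with 12.06 and 12.02 untreated, 13.09 and 12.60 after heat, and 13.88 and 13.49 after peroxide (0.84 ± 0.23, adjusted p = 0.0492). The 23 lower calls became 7 and 33 without heat at 30 and 45 min, 3 and 9 without peroxide at 30 and 45 min and 13 without either untreated array, and SOD2 lost its call in all of these. Without the KCl arrays 36 were lower.

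Reserve carbohydrate genes followed the same order. Of 23 trehalose and glycogen genes, 8 (34.8%, against 12.7% of all genes) were lower in peroxide and 1 was higher. The list medians were 2.74 and 2.30 after heat and 1.53 and 1.34 after peroxide. GPH1, glycogen phosphorylase, measured 9.21 and 9.17 untreated, 13.66 and 12.66 after heat, and 10.72 and 11.46 after peroxide (-2.06 ± 0.42, adjusted p = 0.0241). The trehalose synthase subunits TPS1 (-0.60 ± 0.21) and TSL1 (-0.99 ± 0.27) did not pass. The phosphoglucomutases split: PGM2 measured 8.58 and 8.89 untreated, 13.52 and 13.05 after heat, and 11.72 and 12.23 after peroxide (-1.31 ± 0.27), and PGM1 measured 11.86 and 11.75 untreated, 10.71 and 10.40 after heat, and 11.71 and 11.61 after peroxide (1.11 ± 0.14). The 8 lower calls were 3 and 10 without heat at 30 and 45 min, 2 without either peroxide array, 4 without either untreated array and 15 without the KCl arrays. Of 38 autophagy and vacuole genes, 7 (18.4%, against 12.7% of all genes) were lower in peroxide, including ATG14 (-0.996 ± 0.18) and the protease inhibitor PBI2 (-1.44 ± 0.25), and 1, ATG5, was higher (0.93 ± 0.15). No lower autophagy call was left without either 30 min array, and 11 were made without heat at 45 min, 2 without peroxide at 45 min or either untreated array and 18 without the KCl arrays.

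Cell wall genes were lower in peroxide for 19 of 49 (38.8%, against 12.7% of all genes) and higher for 2. PST1 measured 10.44 and 10.66 untreated, 13.59 and 13.34 after heat, and 10.31 and 9.88 after peroxide. Heat was above and peroxide below the untreated arrays. RLM1, the transcription factor of the cell wall integrity pathway, measured 9.48 and 9.58 untreated, 11.24 and 10.77 after heat, and 9.69 and 9.77 after peroxide (-1.27 ± 0.22, adjusted p = 0.0158). SLT2, the kinase that activates Rlm1, gave -0.81 ± 0.23 and just missed the threshold (adjusted p = 0.052). The mannoprotein TIP1 measured 13.22 and 13.19 untreated, 14.14 and 13.95 after heat, and 11.70 and 11.33 after peroxide (-2.53 ± 0.15, adjusted p = 0.0016), so the stresses again lay on opposite sides of the untreated arrays. The wall sensor gene MTL1 (-1.87 ± 0.19), CWP1 (-1.11 ± 0.19) and SED1 (-0.84 ± 0.14) were lower too, while SRL1 (0.94 ± 0.13) and the sensor gene WSC2 (0.58 ± 0.14) were higher. The 19 lower calls became 6 and 16 without heat at 30 and 45 min, 5 and 6 without peroxide at 30 and 45 min, 12 without either untreated array and 29 without the KCl arrays.

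Respiratory genes were lower in peroxide for 26 of 57 (45.6%, against 12.7% of all genes) and higher for 2. The list median was 0.58 and 0.39 after heat and -0.14 and 0.00 after peroxide, relative to untreated cells. The succinate dehydrogenase gene SDH2 measured 10.16 and 10.32 untreated, 11.82 and 11.31 after heat, and 9.39 and 9.99 after peroxide (-1.87 ± 0.27, adjusted p = 0.0099), and SDH1 gave -1.82 ± 0.16. The other subunit genes SDH3 and SDH4 were called lower too, as were COR1, CYT1, RIP1, QCR2, QCR6, QCR7, QCR8, QCR9 and QCR10 of the cytochrome bc1 complex. HAP4, the activating subunit of the factor that drives respiratory genes, measured 8.97 and 9.23 untreated, 10.31 and 9.91 after heat, and 9.04 and 9.01 after peroxide (-1.08 ± 0.16, adjusted p = 0.0114). The isoforms of cytochrome c were called in opposite directions. CYC1 measured 11.33 and 11.18 untreated, 10.44 and 11.28 after heat, and 13.004 and 12.22 after peroxide (1.75 ± 0.44, adjusted p = 0.04), and CYC7 measured 6.41 and 6.06 untreated, 12.16 and 11.05 after heat, and 10.44 and 9.67 after peroxide (-1.56 ± 0.35, adjusted p = 0.031). CYC7 was above the untreated arrays in both stresses. The 26 lower calls became 6 without heat at 30 min, 2 and 7 without peroxide at 30 and 45 min and 10 without either untreated array.

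**Figure D4:**
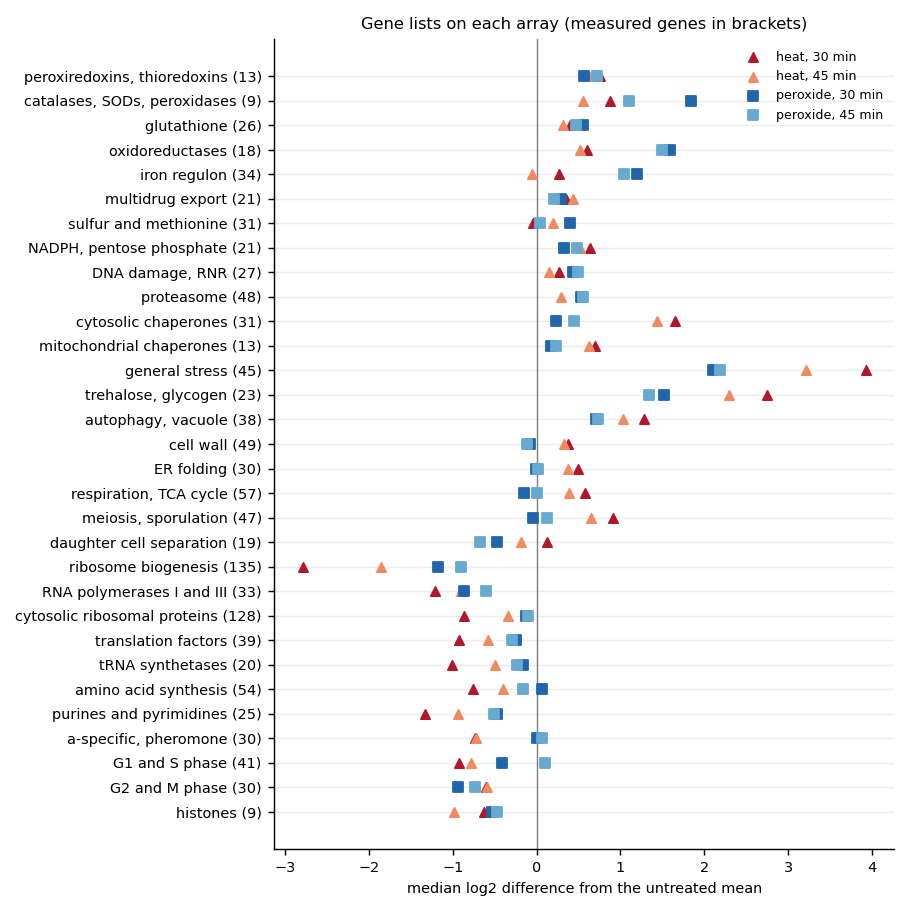
Median log2 difference from the untreated mean (x axis) of the genes of 31 lists (y axis, number of genes in brackets) on the heat arrays (red triangles) and peroxide arrays (blue squares) at 30 and 45 min. Ribosome biogenesis lies at -2.79 and -1.86 in heat and -1.17 and -0.90 in peroxide, and general stress genes lie at 3.93 and 3.21 in heat and 2.11 and 2.18 in peroxide.

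Genes for building ribosomes were below the untreated level in both stresses and higher in peroxide than in heat. The median of 135 ribosome biogenesis genes was -2.79 and -1.86 after heat and -1.17 and -0.90 after peroxide. All 135 differences were positive, against 2402 of 5449 over all genes, with a median of 1.34 (0.69 without heat at 30 min). Of the 135, 50 (37.0%, against 8.50% of all genes) were called higher and none lower. NSR1, a nucleolar RNA-binding protein gene, measured 13.20 and 13.26 untreated, 8.89 and 9.82 after heat, and 12.23 and 12.38 after peroxide (2.95 ± 0.44, adjusted p = 0.011). SDA1, an export factor of the large subunit, measured 12.40 and 12.19 untreated, 7.40 and 9.08 after heat, and 11.27 and 11.24 after peroxide (3.02 ± 0.64, adjusted p = 0.026). In both, heat at 30 min was the lowest array and the peroxide arrays were close together.

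The number called in this list depended on the arrays used. It was 129 without the KCl arrays, 100 without heat at 45 min, 15 without either untreated array, 3 without heat at 30 min or peroxide at 45 min and 1 without peroxide at 30 min. NOP56, a core protein of box C/D particles, measured 12.68 and 12.83 untreated, 9.69 and 11.18 after heat, and 12.15 and 12.14 after peroxide and did not pass (1.71 ± 0.57, adjusted p = 0.078). Of 33 genes of RNA polymerases I and III, 5 (15.2%, against 8.50% of all genes) were higher in peroxide and none lower, led by RPA49 (1.75 ± 0.32). That count was 10 without heat at 45 min, 15 without the KCl arrays, 1 without either untreated array and 0 without heat at 30 min or either peroxide array.

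Cytosolic ribosomal protein genes differed less. Of 128, 125 had a positive difference, against 2402 of 5449 over all genes, with a median of 0.46. But 2 (1.56%, against 8.50% of all genes) were called higher and 1 lower. The median was 0.14 without heat at 30 min and 0.79 without heat at 45 min. RPL9A measured 13.58 and 13.56 untreated, 11.25 and 12.50 after heat, and 13.52 and 13.45 after peroxide (1.61 ± 0.35, adjusted p = 0.027). The paralogues RPL15A and RPL15B were called in opposite directions. Such paralogues are near-identical, so their probe sets may share signal. RPL15A measured 13.70 and 13.71 untreated, 12.53 and 12.98 after heat, and 13.61 and 13.54 after peroxide (0.82 ± 0.18), and RPL15B measured 10.54 and 10.50 untreated, 11.59 and 11.51 after heat, and 10.78 and 10.76 after peroxide (-0.78 ± 0.15). Without the KCl arrays 50 of the 128 were higher and 1 lower, and without heat at 45 min 64 and 1. Leaving out any other array ended all 3 calls. Of 72 mitochondrial ribosomal protein genes, 2 (2.78%, against 8.50% of all genes) were called higher and none lower. Those 2 calls ended without any 1 of the heat, peroxide or untreated arrays, while 8 were higher and 4 lower without the KCl arrays.

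Of 39 translation factors, 9 (23.1%, against 8.50% of all genes) were higher in peroxide and none lower, including TIF4631, an eIF4G gene, at 1.22 ± 0.22 and TIF5, the eIF5 gene, at 0.75 ± 0.13. TIF4631 measured 12.37 and 12.38 untreated, 10.46 and 11.02 after heat, and 11.99 and 11.92 after peroxide. Of 20 tRNA synthetases, 3 (15.0%, against 8.50%) were higher. All 20 differences were positive, against 2402 of 5449 over all genes. KRS1, the lysyl-tRNA synthetase, measured 13.44 and 13.48 untreated, 11.83 and 12.70 after heat, and 13.60 and 13.44 after peroxide (1.26 ± 0.31, adjusted p = 0.038), with peroxide at the untreated level. The translation factor count was 21 without the KCl arrays, 17 without heat at 45 min, 1 without either untreated array and 0 without heat at 30 min or either peroxide array. The synthetase count was 10, 12, 0 and 0 in the same order.

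Of 54 amino acid synthesis genes, 14 (25.9%, against 8.50% of all genes) were higher in peroxide. A further 6 (11.1%, near the 12.7% of all genes) were lower. LYS20 (YDL182W), homocitrate synthase at the head of lysine synthesis, measured 12.68 and 12.62 untreated, 10.62 and 11.35 after heat, and 14.23 and 13.89 after peroxide (3.07 ± 0.27, adjusted p = 0.0034). Heat was below and peroxide above the untreated arrays. The lysine genes LYS1, LYS2, LYS9 and LYS12 were called higher as well. ARO4, which starts aromatic amino acid synthesis, measured 12.95 and 13.005 untreated, 10.61 and 11.38 after heat, and 12.93 and 12.72 after peroxide (1.83 ± 0.32). The count of 14 was 22 without heat at 45 min, 1 without heat at 30 min, 2 and 5 without peroxide at 30 and 45 min, 4 without either untreated array and 23 without the KCl arrays. The count of 6 was 2 without peroxide at 30 min.

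The lower members included the glycine cleavage system. GCV1 measured 10.48 and 10.54 untreated, 12.41 and 12.75 after heat, and 9.66 and 10.49 after peroxide (-2.51 ± 0.17, adjusted p = 0.0023). GCV2 differed by -1.86 ± 0.18 and GCV3 by -1.08 ± 0.18, and SHM2, which exchanges serine and glycine, by -1.19 ± 0.28. The glutamate synthase GLT1 measured 11.99 and 11.93 untreated, 10.96 and 11.73 after heat, and 9.27 and 9.85 after peroxide (-1.78 ± 0.20), below the untreated arrays in both stresses and lowest in peroxide. ADE17, a late purine enzyme that uses folate-bound carbon, measured 12.52 and 12.50 untreated, 12.20 and 12.90 after heat, and 10.85 and 10.95 after peroxide (-1.65 ± 0.30, adjusted p = 0.018). Of 25 purine and pyrimidine genes, 2 (8%, against 12.7% of all genes) were lower, ADE17 and ADE2 (-0.57 ± 0.14). A further 5 (20%, against 8.50%) were higher, including IMD4 (1.73 ± 0.40) and GUA1 (1.88 ± 0.50) of the guanine branch. Those 5 were 13 without heat at 45 min, 16 without the KCl arrays and 1 without any 1 of the other heat, peroxide or untreated arrays, and no lower call was left without either peroxide array.

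Sulfur and methionine genes were higher in peroxide for 6 of 31 (19.4%, against 8.50% of all genes) and lower for 1. MET3, ATP sulfurylase, measured 9.23 and 9.25 untreated, 9.70 and 9.71 after heat, and 10.73 and 10.68 after peroxide (0.9996 ± 0.13, adjusted p = 0.0067). MET16, which reduces activated sulfate, differed by 1.24 ± 0.20, and the S-methylmethionine permease MMP1 by 1.96 ± 0.41. MET13, a methylenetetrahydrofolate reductase, was lower in peroxide (-1.19 ± 0.19). No call was left without either 30 min array, 9 and 2 genes were called higher and lower without heat at 45 min, 2 and 0 without peroxide at 45 min, 3 and 1 without either untreated array, and 10 and 3 without the KCl arrays.

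Of 32 sterol genes, 6 (18.8%, against 12.7% of all genes) were lower in peroxide and 2 higher. ERG1, squalene epoxidase, measured 12.93 and 13.10 untreated, 12.81 and 13.07 after heat, and 11.25 and 12.14 after peroxide (-1.24 ± 0.23, adjusted p = 0.018), so peroxide alone was away from the untreated level. ERG11 gave -1.03 ± 0.19 and ERG28 -1.39 ± 0.25, and ROX1, the hypoxic repressor counted in this list, gave 1.38 ± 0.24. Of 24 fatty acid and phospholipid genes 5 (20.8%, against 12.7%) were lower, including the acyl-CoA synthetase FAA1 (-1.37 ± 0.21). Of 25 phosphate genes 6 (24%) were lower and 3 (12.0%) higher, against 12.7% and 8.50% of all genes. The higher ones were the transporters PHO89 (2.07 ± 0.33) and PHO90 (1.54 ± 0.39) and the regulator PHO4 (0.68 ± 0.16). The sterol counts higher and lower were 0 and 0 without either 30 min array, 3 and 2 without heat at 45 min, 0 and 5 without peroxide at 45 min, 1 and 2 without either untreated array, and 4 and 11 without the KCl arrays. The 5 fatty acid calls were 0 without either 30 min array, 3 without either untreated array and 10 without the KCl arrays. The phosphate counts were 0 and 1 without heat at 30 min, 1 and 1 without peroxide at 30 min, 0 and 2 without peroxide at 45 min, 1 and 3 without either untreated array, and 5 and 9 without the KCl arrays.

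Genes of the a mating type and of pheromone response were higher in peroxide for 19 of 30 (63.3%, against 8.50% of all genes) and lower for 2. AGA1 (YNR044W), the anchor of a-agglutinin, measured 11.28 and 11.29 untreated, 8.73 and 8.74 after heat, and 11.42 and 11.59 after peroxide (2.77 ± 0.15, adjusted p = 0.0012). FUS1, needed for cell fusion, measured 10.20 and 10.03 untreated, 8.65 and 8.72 after heat, and 10.71 and 10.40 after peroxide (1.88 ± 0.19, adjusted p = 0.0039). FAR1, which arrests the cycle for mating, measured 11.70 and 11.62 untreated, 8.47 and 9.40 after heat, and 11.15 and 11.25 after peroxide (2.26 ± 0.27). In these 3 genes the peroxide arrays lay near the untreated arrays and the heat arrays well below. The list median was -0.74 and -0.72 after heat and 0.01 and 0.07 after peroxide. The 19 calls became 6 without heat at 30 min, 3 and 8 without peroxide at 30 and 45 min and 12 without either untreated array. The 2 lower genes were the protease AXL1 (-0.76 ± 0.16) and the scaffold STE5 (-0.58 ± 0.14), and neither kept the call without a 30 min array or an untreated array.

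The a-cell markers AGA2, BAR1, MFA1, STE2 and STE6 were among those called, by 1.67, 1.22, 1.56, 0.72 and 0.51, while MFA2 (0.38) and ASG7 (-0.06) did not pass. Of the alpha-cell markers, MF(ALPHA)1 was below background on all 6 arrays, at 3.47 to 4.17. STE3, the a-factor receptor, measured 6.15 and 6.48 untreated, 8.14 and 8.02 after heat, and 6.74 and 7.01 after peroxide (-1.21 ± 0.18, adjusted p = 0.01). MF(ALPHA)2 measured 5.16 and 5.25 untreated, 5.03 and 5.45 after heat, and 7.36 and 6.59 after peroxide (1.74 ± 0.27), so these alpha-cell genes did not move together. SAG1 gave 0.09 ± 0.16. Among genes often deleted in laboratory strains, LEU2, URA3 and MET17 lay between 3.33 and 4.66 on all 6 arrays and HIS3 between 11.46 and 12.25.

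Of 47 meiosis and sporulation genes, 22 (46.8%, against 12.7% of all genes) were lower in peroxide and 1 was higher. AMA1, an activator of the meiotic anaphase-promoting complex, measured 5.07 and 4.94 untreated, 8.16 and 7.22 after heat, and 5.39 and 5.37 after peroxide (-2.31 ± 0.24, adjusted p = 0.0038). The exception was SMK1, a kinase of spore wall formation, which measured 6.63 and 6.48 untreated, 6.37 and 6.25 after heat, and 9.62 and 8.40 after peroxide (2.70 ± 0.26, adjusted p = 0.0036). Heat was close to the untreated arrays for SMK1, and peroxide well above. All 47 lay among the dimmest 25% of genes by mean level over all arrays of the series. With genes ranked instead on the untreated, heat and peroxide arrays, the dimmest 25% held 269 lower and 79 higher calls, against 139 and 134 in the brightest 25%. The 22 calls became 5 without heat at 30 min, 3 and 13 without peroxide at 30 and 45 min and 14 without either untreated array.

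Of 41 genes of G1 and S phase, 21 (51.2%, against 8.50% of all genes) were higher in peroxide and 1 lower. The list medians were -0.92 and -0.78 after heat and -0.41 and 0.10 after peroxide. RNR1, the large subunit of ribonucleotide reductase, measured 12.69 and 12.49 untreated, 9.88 and 11.59 after heat, and 12.48 and 12.88 after peroxide (1.94 ± 0.34, adjusted p = 0.017). NRM1, which represses G1 transcription as cells enter S phase, measured 10.15 and 10.14 untreated, 8.03 and 8.10 after heat, and 9.60 and 9.66 after peroxide (1.56 ± 0.27). SIC1, the inhibitor of S-phase cyclin kinase, was the lower one, with 9.86 and 9.63 untreated, 10.36 and 10.06 after heat, and 9.58 and 9.10 after peroxide (-0.87 ± 0.15, adjusted p = 0.016). The 21 higher calls became 1 without heat at 30 min, 7 without heat at 45 min, 0 without either peroxide array and 4 without either untreated array.

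Among 30 genes of G2 and M phase, 2 (6.67%, against 12.7% of all genes) were lower in peroxide, the haspin kinase ALK1 (-0.97 ± 0.24) and WTM1 (-1.58 ± 0.13), and none was higher. The list median was -0.60 and -0.58 after heat and -0.94 and -0.74 after peroxide. Without the KCl arrays 8 were lower and 2 higher, and without any 1 heat or untreated array, or peroxide at 30 min, 1 was lower. Of 19 genes of daughter cell separation and early G1, 8 (42.1%, against 12.7%) were lower and none higher. DSE4, a glucanase that parts daughter from mother, measured 11.18 and 11.13 untreated, 12.31 and 12.25 after heat, and 10.41 and 10.19 after peroxide (-1.98 ± 0.21, adjusted p = 0.004). Heat and peroxide lay on opposite sides of the untreated arrays. Of the 8 daughter-cell calls, 3 to 4 were made without heat at 30 min, either peroxide array or either untreated array.

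In the DNA damage list, 7 of 27 genes (25.9%, against 8.50% of all genes) were higher in peroxide and 1 lower. PLM2, a damage-responsive transcription factor gene, measured 7.75 and 7.71 untreated, 7.16 and 7.19 after heat, and 9.45 and 9.28 after peroxide (2.19 ± 0.30, adjusted p = 0.0089). DIN7, a damage-inducible mitochondrial nuclease, measured 8.40 and 8.47 untreated, 8.32 and 7.97 after heat, and 9.62 and 9.27 after peroxide (1.30 ± 0.15, adjusted p = 0.0058). Peroxide was above every other array for both. Other called members had another pattern. RNR1 (1.94 ± 0.34) lay near the untreated level in peroxide and below it in heat. TOS6 measured 11.79 and 11.56 untreated, 7.90 and 9.81 after heat, and 9.92 and 11.28 after peroxide (1.74 ± 0.40). Both stresses lay below the untreated arrays there. The checkpoint kinase RAD53 differed by 0.92 ± 0.14, and RAD7, of nucleotide excision repair, by -0.67 ± 0.18. RAD54 gave 0.01 ± 0.15 and did not pass. The 7 calls became 2 without heat at 30 min, 1 without either peroxide array and 4 without either untreated array, and the lower count was 3 without the KCl arrays.

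Of 38 stress transcription factors, 6 (15.8%) were higher in peroxide and 7 (18.4%) lower, against 8.50% and 12.7% of all genes. YAP1 measured 10.52 and 10.43 untreated, 11.00 and 10.87 after heat, and 11.99 and 11.61 after peroxide (0.86 ± 0.22, adjusted p = 0.0411). CIN5, a Yap1-family factor, measured 8.85 and 8.83 untreated, 8.66 and 7.94 after heat, and 11.18 and 9.31 after peroxide (1.94 ± 0.32, adjusted p = 0.0148). SOK2 (1.62 ± 0.15), a regulator of filamentous growth, ROX1, HCM1 (0.82 ± 0.20) and the iron regulator AFT2 (0.82 ± 0.21) were also higher, while AFT1 gave 0.14 ± 0.21. The lower genes were RLM1, HAP4, RPN4, WAR1 (-0.99 ± 0.21), STB5 (-0.76 ± 0.20), ARR1 (-0.68 ± 0.14) and YRM1 (-0.62 ± 0.14).

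HSF1, the heat shock factor, measured 9.86 and 9.70 untreated, 10.75 and 10.63 after heat, and 10.77 and 10.43 after peroxide (-0.09 ± 0.24, adjusted p = 0.808). MSN2 gave -0.02 ± 0.12, MSN4 -0.47 ± 0.23 and SKN7 -0.06 ± 0.14, none of which passed. So the messages of the best known regulators of either stress, apart from YAP1, did not pass the threshold, which does not show that they were equal. Of the 38, the remaining members that did not pass ranged from -0.96 (USV1) to 0.85 (PHD1). The counts of 6 and 7 were 1 and 1 without heat at 30 min, 4 and 6 without heat at 45 min, 2 and 0 without peroxide at 30 min, 5 and 0 without peroxide at 45 min, 3 and 2 without either untreated array, and 9 and 12 without the KCl arrays.

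The difference between the stresses was in general wider at 30 min than at 45 min: 62.6% of genes had the larger absolute difference at 30 min. A total of 259 genes had differences that were at least 2-fold apart between the times. This is a description without a test, since each stress and time has 1 array. The ribosome biogenesis median was 1.66 at 30 min and 0.96 at 45 min, and the general stress median was -1.34 and -0.82. In contrast, the iron list median was 1.14 and 1.32.

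The genes with the greatest change of the difference were led by RPL41A, whose probe set can bind related sequences and whose untreated arrays measured 9.38 and 7.48. YHK8, a putative drug exporter gene, measured 8.06 and 8.31 untreated, 6.97 and 7.31 after heat, and 11.02 and 8.09 after peroxide, a difference of 4.04 at 30 min and 0.78 at 45 min. URA7, a CTP synthase gene, measured 13.08 and 12.97 untreated, 8.06 and 10.33 after heat, and 12.04 and 11.99 after peroxide. ARO10, a decarboxylase of amino acid breakdown, measured 9.08 and 8.96 untreated, 12.24 and 10.22 after heat, and 8.91 and 9.33 after peroxide. For YHK8 the peroxide arrays moved apart, and for URA7 and ARO10 the heat arrays did. ARG1 (3.02 at 30 min and 0.25 at 45 min), FAA4 (1.71 and -0.91), STR3 (1.24 and -1.25), HCA4 (3.70 and 1.22), TKL2 (-3.23 and -0.90) and the retrotransposon-derived YAR009C (1.40 and -1.75) made up the rest of the 10.

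**Figure D5:**
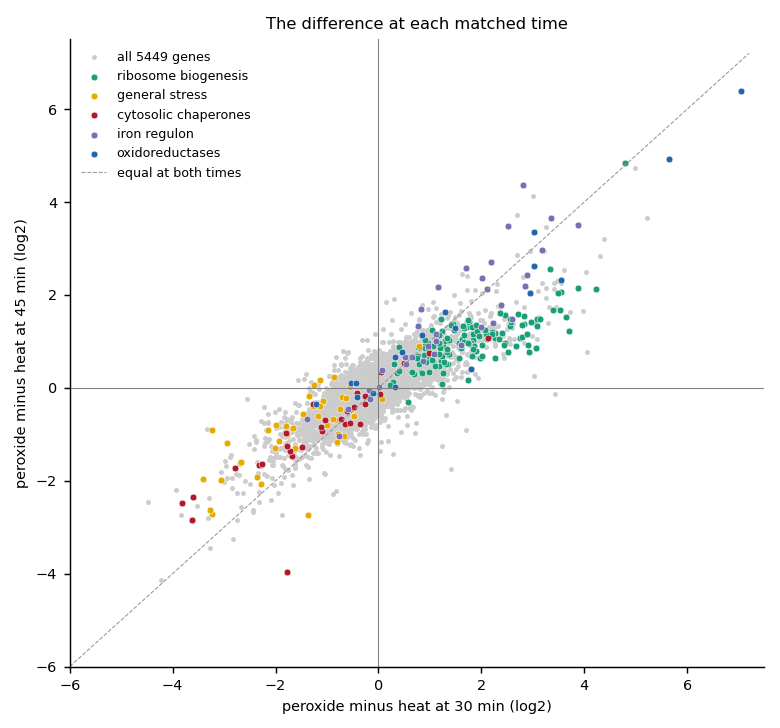
Peroxide minus heat (log2) at 30 min (x axis) against 45 min (y axis) for each gene, with 5 lists coloured and the dashed line marking equal differences. Most ribosome biogenesis genes lie right of 0 and below the dashed line (medians 1.66 and 0.96), and the iron genes lie around it (1.14 and 1.32). Genes of an array are not independent replicates.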

How the data were processed

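The deposited values are log2 signals of each probe set, which the authors made with RMA per the submitters' processing notes (for its version and settings, not given in the sources used here). The table was joined to the array annotation: 5498 of 10928 probe sets named 1 gene, the brightest was kept for each of 47 genes with several, and 5449 genes were tested with no further scaling. A second deposited table of log2 fold changes by the authors was used as an alternative. Background was the 95th percentile of 1746 probe sets naming genes absent from the yeast gene table.

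The main fit used limma 3.58.1 in R 4.3.3 on 8 arrays (untreated, heat, KCl and peroxide, 2 each), with a level per group and a shared term for 45 against 30 min, which leaves 3 residual degrees of freedom. No separate cultures are stated, so a p-value covers only the spread among the arrays used, and the number of arrays limits the precision. Genes named were the 15 largest differences in each direction among called genes with the same sign at both times, up to 5 called genes per list with up to 3 that contrast, all antioxidant and transcription factor genes listed, and the 10 largest changes between the times; other members of a list were named after their values were seen, chosen for their known role. Members and the 44 lists were chosen with earlier results of these data known, and 36 listed genes had no probe set of their own. Promoter sequences were not used here.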

Additional observations from a re-analysis of the deposited data

Results flagged for a closer look

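In 7 of the 30 genes with the largest differences, both peroxide arrays lay on one side of both untreated arrays and both heat arrays on the other, and the direct difference passed the threshold. Those with peroxide above and heat below the untreated arrays were FRM2 (6.71), GPX2 (4.86), FRE1 (3.69), FLR1 (3.57) and SIT1 (3.51). In FRM2 and FLR1 the heat arrays lay only just below, at 6.91 and 6.997 for FRM2 against 7.02 and 7.08 untreated, and at 9.35 and 9.24 for FLR1 against 9.36 and 9.48. For PST1 (-3.37) and OPT2 (-3.04) heat lay above and peroxide below. OPT2, an oligopeptide transporter gene, measured 7.78 and 7.80 untreated, 9.77 and 10.27 after heat, and 6.94 and 7.01 after peroxide. Groups of 2 arrays are too small for a test of single outlying arrays.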

How the results depend on the processing

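The count of 1156 genes was 1388 without the time term, 2381 on 6 arrays without KCl, 1505 on the 4 heat and peroxide arrays alone, 562 with a difference of at least 2-fold required, 1141 to 1158 under other scalings, 804 of 4086 genes without the dimmest 25%, 1157 with probe sets of a gene averaged or with a trended robust variance, and 1060 with the authors' fold-change table. Leaving out 1 array in turn gave 119 to 2381. Without the dimmest 25% of genes, 397 calls were higher and 407 lower, a more even split than 463 and 693. Over 218 called genes named by the rule, the call was kept in 2254 of 2352 gene and setting pairs, and in 1111 of 1744 when 1 array was left out. Among named genes past the threshold in the main fit or the fit compared with it, the direction reversed for STR3 (-0.01), which ran from -1.32 to 1.30 as 1 array was left out. Some named genes near 0 that did not pass also changed sign. They included CDC6 (0.04, and -0.24 without peroxide at 45 min) and RAD54 (0.01, and -0.16 without heat at 45 min). The glutathione list median (0.09) reversed too: it ran from -0.020 to 0.10 as 1 array was left out and was -0.028 without the dimmest genes. Other list medians near 0 changed sign too as 1 array was left out: sulfur and methionine (0.19, and -0.076 without heat at 30 min), proteasome (0.14, and -0.094 without heat at 45 min), sterol (-0.025, and 0.14 without peroxide at 30 min), mitochondrial ribosome (-0.012, and 0.050 and 0.089 without heat at 30 min and peroxide at 45 min) and auxotrophic markers (0.048, and -0.063 and -0.095 without heat and peroxide at 30 min). The mitochondrial ribosome median was also 0.013 with arrays shifted on their least variable genes. No value could be given for the meiosis list and the alpha-cell list without the dimmest genes, since none of their genes was left. The labels match heat and peroxide by time, and the shared time term is that matching (1156 genes with it, 1388 without). Pairing by anything other than time could not be tried, since the labels give the stressed arrays no replicate numbers. The planned promoter motif search was not run.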

Other observations

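Among peroxisomal genes, 7 of 38 (18.4%) were lower in peroxide and 3 (7.89%) higher, near the 12.7% and 8.50% of all genes. POX1, the first enzyme of fatty acid oxidation, measured 4.15 and 4.37 in untreated cells, 7.57 and 6.75 after heat, and 5.39 and 5.85 after peroxide (-1.54 ± 0.32, limma adjusted p = 0.026). The paralogous import factors PEX18 and PEX21 were called in opposite directions. PEX18 measured 4.32 and 4.35 untreated, 7.73 and 6.96 after heat, and 4.73 and 5.39 after peroxide (-2.28 ± 0.35, adjusted p = 0.012). PEX21 measured 8.77 and 8.68 untreated, 8.40 and 7.98 after heat, and 9.57 and 9.46 after peroxide (1.33 ± 0.15, adjusted p = 0.0052). The counts became 1 and 1 (lower and higher) without heat at 30 min, 9 and 2 without heat at 45 min, 0 and 2 without peroxide at 30 min, 3 and 2 without peroxide at 45 min, 2 and 2 without either untreated array, and 12 and 4 without the KCl arrays.

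Of 38 signalling genes, 3 (7.89%) were lower and 1 (2.63%) higher, against 12.7% and 8.50% of all genes. RAS1 measured 11.35 and 11.39 untreated, 8.48 and 8.82 after heat, and 10.50 and 10.87 after peroxide (2.03 ± 0.25, adjusted p = 0.0066). PDE1, a phosphodiesterase that degrades cyclic AMP, measured 9.91 and 9.96 untreated, 12.01 and 11.87 after heat, and 10.64 and 10.38 after peroxide (-1.43 ± 0.18, adjusted p = 0.0066). Of 24 glycerol and osmotic genes, 9 (37.5%, against 12.7% of all genes) were lower and 2 (8.33%, near the 8.50%) higher. GPP2, which makes glycerol, gave -1.29 ± 0.20 and the dihydroxyacetone kinase DAK2 0.99 ± 0.18. Of 36 genes of glycolysis and hexose transport, 8 (22.2%, against 12.7%) were lower, including PFK26 (-1.74 ± 0.28), and 1 was higher, HXT2. Of 9 histone genes, 2 (22.2%, against 8.50%) were higher, HHT1 (0.73 ± 0.18) and HHO1 (0.65 ± 0.16). Neither was called without any 1 heat, peroxide or untreated array. The lower counts of the signalling, glycerol and glycolysis lists were 1, 0 and 2 without heat at 30 min, 6, 7 and 8 without heat at 45 min, 2, 0 and 1 without peroxide at 30 min, 2, 1 and 3 without peroxide at 45 min, 3, 3 and 3 without either untreated array, and 11, 9 and 13 without the KCl arrays.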
